A study of Mus musculus with 2 samples.

Results

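The 31 collagen genes described here were the rows of the feature table, 31 of 31054, whose symbols were on a given list of collagens: 8 chains of fibrillar collagens, 10 of basement membrane collagens and 13 of other collagens. All 31 had at least 1 UMI (a counted molecule) in each of the 2 libraries. Both libraries came from the bladder of 1 male mouse aged 25 months, of the genotype p16-CreERT2/R26-LSL-tdTomato, in which a Cre recombinase driven by p16 and switched on by tamoxifen turns on a red fluorescent reporter for good. Tamoxifen was injected on 5 days and the bladder was taken 2 weeks later. Live cells lacking CD45, the surface protein of leukocytes, were sorted by the reporter into positive (Tom+) and negative (Tom-) cells, 1 library each, for droplet-based 3′ RNA sequencing. The mouse, the tamoxifen, the collagenase digestion and the sort for cells without CD45 were common to both groups, and no young, untreated or Cre-free animal was among the samples analysed here. Each group was 1 library, so no difference below has a replicate check or a test, and the 95% intervals (exact Poisson for a level, exact conditional binomial for a ratio, Clopper-Pearson for a share) cover counting error only.

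Collagens are secreted or membrane-bound proteins whose chains wind into a triple helix. Fibrillar collagens such as types I and III form the load-bearing fibres of the bladder wall, type IV collagen forms the sheet-like network of basement membranes under epithelium and around vessels and muscle, and the remaining types coat fibrils, form beaded filaments or anchor cells. Most fibrillar collagen is made by fibroblasts and related stromal cells, while each cell layer that rests on a basement membrane can add chains to it.

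The Tom- library held 13551 barcodes and 197232860 UMIs, and the Tom+ library 2783 barcodes and 34455896 UMIs. After filtering, 9886 and 1881 cells remained, with medians of 12773 and 11579 UMIs. The reporter transcript stood at 37.4 CPM (UMIs scaled to a common total of all genes' UMIs) over all Tom- barcodes and at 1214 CPM over all Tom+ barcodes, while Cdkn2a, the gene of p16, stood at 3.77 and 3.63 CPM. The libraries shared 966 barcodes, of which 657 Tom- and 346 Tom+ barcodes were among the cells used. Cells were clustered without the collagens and the reporter, and clusters were named from marker lists, so every class is a rebuilt one. The defining markers of each class compared between libraries were all detected in it, apart from 1 of the 5 basal or intermediate urothelial markers.

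Levels are given first in the Tom- library, where 9 classes with at least 50 cells could be put in order. The fibroblast-like class held 4134 cells. A separate stromal class marked by Car3, Dkk2, Tnc and Cxcl14, called Car3 stromal below, held 1051. The mesothelial-like class held 757 cells, the endothelial-like class 680 and the lymphatic endothelial-like class 196. The umbrella urothelial-like class, named from markers of the surface layer of the epithelium, held 1398 cells, and the basal or intermediate urothelial-like class 449. In the first, umbrella markers summed to 2696 CPM and basal or intermediate markers to 3664 CPM. In the second these sums were 1091 and 4509 CPM. The umbrella class is therefore not read as the surface layer alone. A smooth muscle and pericyte-like class held 62 cells. A cluster led by Ncam1, Gdf6 and Angptl7, which met no class name and is called cluster 23, held 200. A UMI marks a transcript's 3′ end once, whatever the transcript's length, so CPM values of different genes were not scaled to length.

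Collagen made up the largest share of RNA in Car3 stromal cells, at 3.11% of all UMIs, followed by cluster 23 at 1.84% and fibroblast-like cells at 1.20%. The share was 0.472% in smooth muscle and pericyte-like cells, 0.436% in mesothelial-like cells, 0.161% in lymphatic and 0.147% in other endothelial-like cells, 0.0324% in basal or intermediate and 0.0220% in umbrella urothelial-like cells. The makeup differed as well: fibrillar chains were 82.3% of collagen UMIs in Car3 stromal cells and 72.6% in fibroblast-like cells, while basement membrane chains were 67.0% in endothelial-like cells. Among the 9 classes, 13 of the 31 members were highest in Car3 stromal cells, 7 in cluster 23, 4 in smooth muscle and pericyte-like cells, 3 in lymphatic endothelial-like cells, 2 in fibroblast-like cells, and 1 each in endothelial-like and in basal or intermediate urothelial-like cells. For Col4a1 to Col4a5, Col5a2, Col7a1, Col8a2, Col13a1, Col18a1 and Col26a1 the highest class was not separated from the next (intervals of the ratio include 1).

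**Figure D1:**
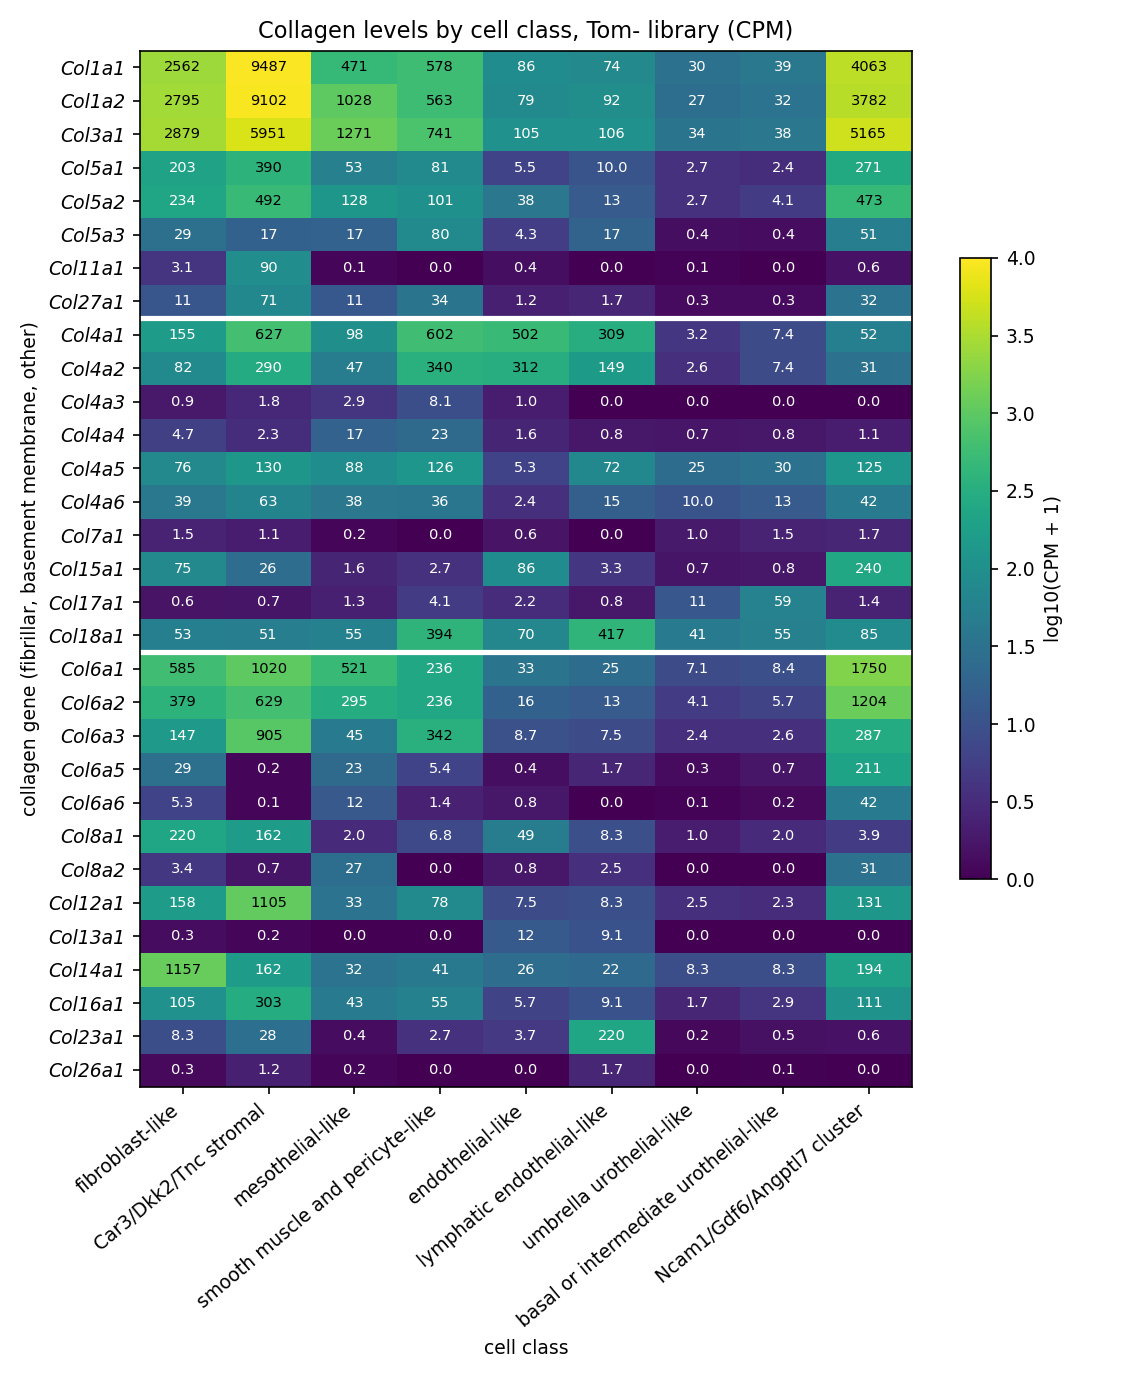
Levels of the 31 listed collagens (rows, by structural group) in 9 cell classes of the Tom- library (columns); the numbers are CPM and the colours log10(CPM + 1), and the last column is cluster 23. Fibrillar collagens other than Col5a3 are highest in Car3 stromal cells, while Col17a1 stands out in urothelial-like cells and Col23a1 in lymphatic endothelial-like cells.

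Col1a1, Col1a2 and Col3a1 were the most abundant members in Car3 stromal cells, cluster 23 and fibroblast-like cells, and 7 of the 8 fibrillar members were highest in Car3 stromal cells. Col1a1, one chain of type I collagen, stood at 9487 CPM in Car3 stromal cells, 4063 CPM in cluster 23, 2562 CPM in fibroblast-like cells, 578 CPM in smooth muscle and pericyte-like cells and 471 CPM in mesothelial-like cells. Col1a2, its partner chain, stood at 9102, 3782, 2795, 563 and 1028 CPM in the same classes. The level of Col1a1 in Car3 stromal cells was 2.33 times that in the next class, cluster 23 (95% interval 2.30 to 2.38). Col3a1, the only chain of type III collagen, was closer between these classes, with 5951 CPM in Car3 stromal cells, 5165 CPM in cluster 23 and 2879 CPM in fibroblast-like cells. The type V chains, which set the diameter of type I fibrils, were less abundant. Col5a1 stood at 390 CPM in Car3 stromal cells and 203 CPM in fibroblast-like cells, and Col5a2 at 492 and 234 CPM. The level of Col5a2 in cluster 23, 473 CPM, was not separated from that in Car3 stromal cells (ratio 1.04, interval 0.986 to 1.10).

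Of the rarer fibrillar chains, Col11a1 was the most uneven. It stood at 89.8 CPM in Car3 stromal cells against 3.09 CPM in fibroblast-like cells, 29.0 times higher (interval 24.4 to 34.7), and Car3 stromal cells held 90.1% of its UMIs in the 9 classes. Col11a1 is best known as a chain of cartilage fibrils. Col27a1 stood at 71.4 CPM in Car3 stromal cells, 33.8 CPM in smooth muscle and pericyte-like cells and 10.9 CPM in fibroblast-like cells. Col5a3 was the exception among the 8, with 79.7 CPM in smooth muscle and pericyte-like cells, 51.1 CPM in cluster 23, 29.3 CPM in fibroblast-like cells and 16.6 CPM in Car3 stromal cells.

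The ratio of chains that assemble together also differed between classes. In mesothelial-like cells there were 0.458 Col1a1 UMIs for each Col1a2 UMI (interval 0.445 to 0.470), against 0.917 in fibroblast-like cells (0.909 to 0.924), 1.04 in Car3 stromal cells and 1.07 in cluster 23. The ratio of Col3a1 to Col1a1 ran the other way, from 0.627 in Car3 stromal cells through 1.12 in fibroblast-like cells to 2.70 in mesothelial-like cells. In the Tom+ library the mesothelial-like values were 0.415 and 3.01, on the same side of the fibroblast-like values of 0.854 and 1.19. Of the 164 Tom+ mesothelial-like cells 67 carried barcodes also found in Tom-, and these ratios were not computed without them. In erythroid-like cells of Tom-, which should make no collagen, Col1a1 stood at 996 CPM, above its mesothelial-like level. The 2 ratios there were 1.07 and 0.765. The part of such UMIs in the mesothelial-like ratios was not tested.

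Among the basement membrane collagens, Col4a1 and Col4a2, which encode the chains found in nearly every basement membrane, were spread over muscle, vessel and stromal classes. Col4a1 stood at 627 CPM in Car3 stromal cells, 602 CPM in smooth muscle and pericyte-like cells, 502 CPM in endothelial-like cells, 309 CPM in lymphatic endothelial-like cells, 155 CPM in fibroblast-like cells and 98.2 CPM in mesothelial-like cells. The first and second of these were not separated (ratio 1.04, interval 0.947 to 1.148). Col4a2 stood at 290, 340, 312, 149, 81.8 and 47.3 CPM in the same classes. The pair kept a narrow ratio: Col4a1 gave 1.61 to 2.16 UMIs per Col4a2 UMI in the 7 of the 9 classes other than the urothelial-like ones, where the ratio was 1.26 in umbrella and 1.01 in basal or intermediate cells at levels of 7.43 CPM or less.

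Col4a1 and Col4a2 lie head to head on chromosome 8, and their promoter windows (250 bases before to 50 after the start, RefSeq, GRCm38.p6) overlap, so both are shown, 5′ to 3′ on their own strand. A second head-to-head pair among the members, Col4a4 and Col4a3 on chromosome 1, has starts 72 bases apart, and is not shown because no window was found for Col4a3. Capitals mark the 78 bases, chr8:11312777-11312854, that both windows hold, each the reverse complement of the other. Col4a1 is read from the minus strand of chr8:11312777-11313076 and Col4a2 from the plus strand of chr8:11312555-11312854.
Col4a1: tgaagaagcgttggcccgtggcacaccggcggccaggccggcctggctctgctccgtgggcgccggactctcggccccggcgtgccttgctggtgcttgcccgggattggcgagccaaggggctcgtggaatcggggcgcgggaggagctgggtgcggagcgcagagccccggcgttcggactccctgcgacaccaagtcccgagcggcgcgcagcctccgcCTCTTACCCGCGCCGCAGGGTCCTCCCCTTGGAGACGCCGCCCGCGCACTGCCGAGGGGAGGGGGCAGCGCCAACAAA
Col4a2: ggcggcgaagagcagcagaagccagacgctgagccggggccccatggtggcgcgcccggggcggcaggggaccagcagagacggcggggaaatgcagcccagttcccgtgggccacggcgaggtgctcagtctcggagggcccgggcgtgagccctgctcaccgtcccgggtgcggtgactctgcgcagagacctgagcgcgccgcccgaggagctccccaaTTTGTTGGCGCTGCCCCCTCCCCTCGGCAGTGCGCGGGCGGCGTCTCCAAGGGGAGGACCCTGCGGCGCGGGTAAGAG
Windows were found for 25 of the 31 members, 27 windows in all, and not for Col1a1, Col4a3, Col5a2, Col12a1, Col14a1 and Col26a1. Among the windows found, these 2 (7.41%) overlapped a window of another gene on the opposite strand, as did 3547 of 32851 windows (10.8%) in the whole table, a share that leaves out pairs with a missing window. G and C made up 74.0% of the Col4a1 window and 73.7% of the Col4a2 window, against a median of 52.7% over all windows. The letters CCAAT, searched on both strands, occurred once in each, as in 37.4% of all windows and 37.0% of collagen windows. The letters TATAAA occurred in neither, and in 13.6% of all windows and 11.1% of collagen windows. These matches describe letters in a window of fixed length and were not tested as sites.

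The other type IV chains had a different distribution. Col4a5 stood at 130 CPM in Car3 stromal cells, 126 CPM in smooth muscle and pericyte-like cells, 125 CPM in cluster 23, 87.8 CPM in mesothelial-like, 75.6 CPM in fibroblast-like and 72.3 CPM in lymphatic endothelial-like cells, and at 5.27 CPM in other endothelial-like cells. Col4a6 was lower in each of these classes, with 62.5 CPM in Car3 stromal cells and 2.43 CPM in endothelial-like cells. Both were present in urothelial-like cells, Col4a5 at 24.5 CPM in umbrella and 29.9 CPM in basal or intermediate cells and Col4a6 at 9.99 and 12.9 CPM, where Col4a1 was at 3.23 and 7.43 CPM. Col4a3 and Col4a4, chains of the kidney filter membrane, were scarce. Col4a3 had 130 UMIs in the 9 classes and reached 8.10 CPM at most, and Col4a4 reached 22.96 CPM in smooth muscle and pericyte-like and 17.1 CPM in mesothelial-like cells.

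Col17a1, the hemidesmosome collagen that ties basal epithelial cells to their basement membrane, had its highest levels in urothelial-like cells. It stood at 59.3 CPM in basal or intermediate cells and 11.1 CPM in umbrella cells, a ratio of 5.35 (interval 4.83 to 5.93), and at 4.05 CPM or less in the other 7 classes. In the Tom+ library the values were 64.0 and 11.5 CPM, a ratio of 5.58 (4.57 to 6.82). In mesothelial-like cells Col17a1 stood at 1.26 CPM (Tom-) and 6.56 CPM (Tom+), and the summed basal urothelial markers were 137 and 462 CPM; their part in this was not tested. Col7a1, which forms anchoring fibrils, stayed at or below 1.67 CPM in all 9 classes. Col18a1, the precursor of endostatin, was highest in lymphatic endothelial-like cells at 417 CPM and in smooth muscle and pericyte-like cells at 394 CPM, which were not separated (ratio 1.06, interval 0.913 to 1.22). It was at 41.4 to 85.0 CPM in the 7 remaining classes, urothelial-like cells included. Its relative Col15a1 was highest in cluster 23 at 240 CPM, with 86.2 CPM in endothelial-like, 75.1 CPM in fibroblast-like and 26.3 CPM in Car3 stromal cells, and with at most 3.33 CPM in the other 5 classes.

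The remaining collagens divided the stromal classes from one another. Col12a1, a fibril-associated collagen, stood at 1105 CPM in Car3 stromal cells and 158 CPM in fibroblast-like cells, a ratio of 7.0 (interval 6.81 to 7.20). Col14a1, a close relative of it, had the reverse order, with 1157 CPM in fibroblast-like cells, 194 CPM in cluster 23 and 162 CPM in Car3 stromal cells. Fibroblast-like cells held 92.2% of the Col14a1 UMIs in the 9 classes. Col8a1, a short-chain network collagen, was also highest in fibroblast-like cells at 220 CPM, with 162 CPM in Car3 stromal, 49.3 CPM in endothelial-like and 2.04 CPM in mesothelial-like cells. Its partner chain Col8a2 was highest where Col8a1 was scarce, at 30.6 CPM in cluster 23 and 26.6 CPM in mesothelial-like cells, against 3.44 CPM in fibroblast-like cells. There were 63.9 Col8a1 UMIs per Col8a2 UMI in fibroblast-like cells (interval 54.6 to 75.2) and 0.0764 in mesothelial-like cells (0.0522 to 0.108). Col16a1 stood at 303 CPM in Car3 stromal cells, 111 CPM in cluster 23 and 105 CPM in fibroblast-like cells.

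Type VI collagen forms beaded filaments around cells, and the transcripts of its chains stood in different proportions in different classes. Col6a1 was highest in cluster 23 at 1750 CPM, with 1020 CPM in Car3 stromal, 585 CPM in fibroblast-like and 521 CPM in mesothelial-like cells, and Col6a2 had the same order at 1204, 629, 379 and 295 CPM. Col6a3 was highest in Car3 stromal cells at 905 CPM, and stood at 342 CPM in smooth muscle and pericyte-like cells and 45.1 CPM in mesothelial-like cells. Per Col6a1 UMI there were 0.0866 Col6a3 UMIs in mesothelial-like cells, 0.164 in cluster 23, 0.252 in fibroblast-like cells, 0.887 in Car3 stromal cells and 1.45 in smooth muscle and pericyte-like cells. The alternative chain Col6a5 stood at 211 CPM in cluster 23, 7.22 times its level in fibroblast-like cells (29.2 CPM, interval of the ratio 6.60 to 7.90), and at 0.19 CPM in Car3 stromal cells. Col6a6 followed it with 41.7 CPM in cluster 23, 12.3 CPM in mesothelial-like and 5.28 CPM in fibroblast-like cells.

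Of the membrane-spanning collagens, Col23a1 stood at 220 CPM in lymphatic endothelial-like cells, 7.90 times the next class, Car3 stromal cells at 27.9 CPM (interval 6.75 to 9.22). An unnamed cluster of 116 shallow cells led by Coch, which was left out of the order, held it at 295 CPM. In the Tom+ library it stood at 300.3 CPM in lymphatic endothelial-like cells against 4.61 CPM in fibroblast-like cells. Col13a1 was low, at 12.4 CPM in endothelial-like and 9.15 CPM in lymphatic endothelial-like cells, which were not separated (ratio 1.35, interval 0.705 to 2.85). Col26a1 had 38 UMIs in all 9 classes.

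In the Tom+ library 7 of these classes had at least 50 cells. Of the 28 members with at least 20 UMIs in each library in those classes, 26 had the same highest class in both libraries; the other two were Col7a1 and Col12a1. Car3 stromal cells were nearly missing from Tom+, with 33 cells, 1.75% of that library, against 10.6% of Tom-, and were not compared between libraries. Smooth muscle and pericyte-like cells were represented by 1 Tom+ cell.

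Fibrillar collagens were detected in urothelial-like cells too, at low levels. In the Tom- library 59.4% of umbrella cells had a Col1a1 UMI, against 98.1% of fibroblast-like ones, whose median UMI counts were 38925 and 10928. With each cell thinned to 2000 UMIs the shares were 5.2% and 92.7%. Umbrella cells held Col1a1 at 1.19%, Col1a2 at 0.970% and Col3a1 at 1.17% of the fibroblast-like level in Tom-, and at 0.146%, 0.119% and 0.211% in Tom+. Of the 21 members at 10 CPM or more in Tom- fibroblast-like cells, 17 stood at a smaller percentage of that level in Tom+ than in Tom- umbrella cells; the other four were Col4a1, Col4a2, Col4a5 and Col4a6. Col4a5 was at 32.4% in Tom- and 34.4% in Tom+, Col4a6 at 25.3% and 30.8%, Col18a1 at 78.2% and 73.2%, Col4a1 at 2.08% and 2.45%, and Col4a2 at 3.13% and 3.28%. In basal or intermediate cells the percentage was smaller in Tom+ for 19 of the 21, all but Col4a5 and Col4a6. Col1a1 was at 1.53% and 0.231%, Col4a5 at 39.5% and 42.8% and Col18a1 at 104% and 94.2%. Such counts were not made over all genes, so they are not read as a trait of collagens. In 69 erythroid-like cells of Tom-, which should make no collagen, Col1a1 stood at 996 CPM. Of these cells 69.6% had a Col1a1 UMI (34.8% when thinned). That level was above the 30.4 and 39.1 CPM of Col1a1 in the urothelial-like classes. It was also above the Tom- Col1a1 levels of smooth muscle and pericyte-like, mesothelial-like, endothelial-like and lymphatic endothelial-like cells. No expression is read from the urothelial Col1a1 UMIs, and where they came from was not tested.

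**Figure D2:**
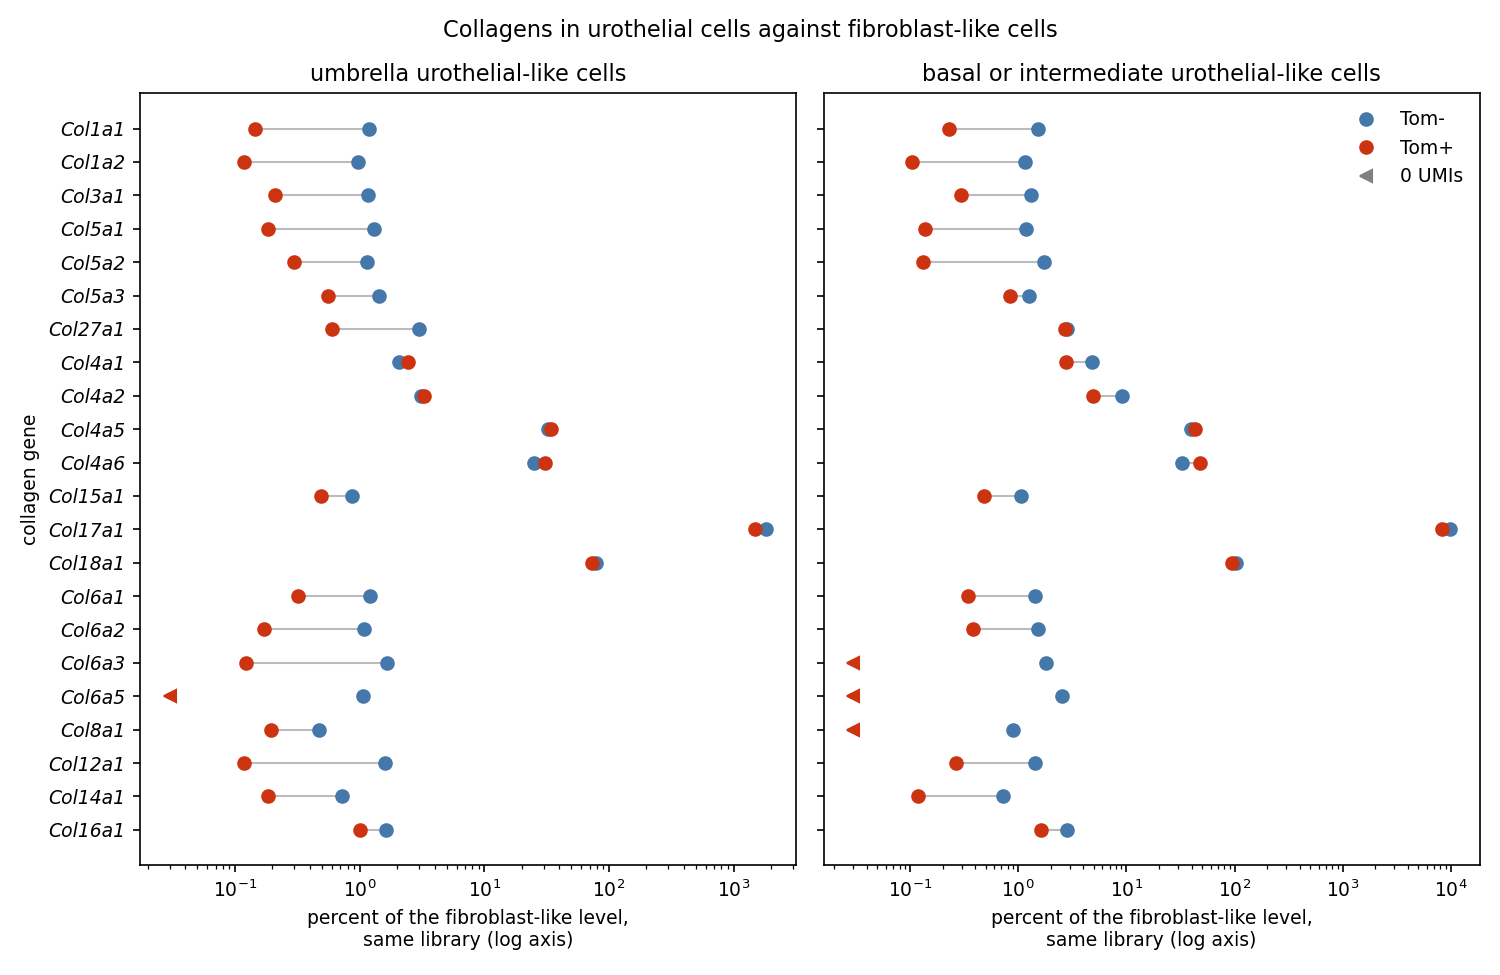
Level of each collagen in umbrella (left) and basal or intermediate (right) urothelial-like cells as a percentage of its level in fibroblast-like cells of the same library, on a log axis; blue points are Tom-, red points Tom+, and triangles mark 0 UMIs. Fibrillar members lie near 1% in Tom- and further left in Tom+, while Col4a5, Col4a6, Col17a1 and Col18a1 lie far to the right with both points close together.

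Between the libraries, 7 classes had at least 50 cells in each. A member counted as measured if it reached 10 CPM in either library and 20 UMIs over both, and as higher or lower when it differed at least 1.5 times after 1 CPM was added to both levels. Markers of red blood cells were lower in Tom+ in all 7 classes, for example at a summed 480 against 48.6 CPM among fibroblast-like and 934 against 65.9 CPM among endothelial-like cells. Their part in the results was not tested. The same members were called without barcodes found in both libraries in lymphatic endothelial-like and in both urothelial-like classes, and the other classes are given below.

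Collagen levels of fibroblast-like cells were close in the 2 libraries. Of the 31 members 21 were measured, 1 was higher, none was lower, and the median log2 ratio was -0.06, beside a median of -0.00026 over all 8871 genes measured in this class, of which 1.3% were called higher, 1.16% lower and 2.46% in either direction. The gene called was Col15a1, at 75.1 CPM over the 4134 Tom- cells against 117 CPM over the 722 Tom+ cells, 1.56 times as high (interval 1.44 to 1.69). It was not called when barcodes found in both libraries were left out (log2 ratio 0.52) or when predicted doublets were kept (0.51), against 0.64. Col1a1 stood at 2562 and 2089 CPM (ratio 0.815, 0.801 to 0.830), Col1a2 at 2795 and 2446 CPM (0.875) and Col3a1 at 2879 and 2493 CPM (0.866). The lowest ratio among measured members was that of Col12a1, 158 and 107 CPM (0.678, 0.627 to 0.733), and Col14a1 stood at 1157 and 1438 CPM (1.24, 1.22 to 1.27). These intervals do not include 1, and none of these genes reached the fold. The summed level of the Car3 stromal markers in this class was 466 CPM for Tom- and 74.3 CPM for Tom+. Counted together with the Car3 stromal cells, the class gave 1 member higher and 8 lower, among them Col1a1, Col1a2, Col6a3, Col11a1 and Col12a1, where 1.83% of 8965 genes were called higher, 2.86% lower and 4.68% in either direction.

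**Figure D3:**
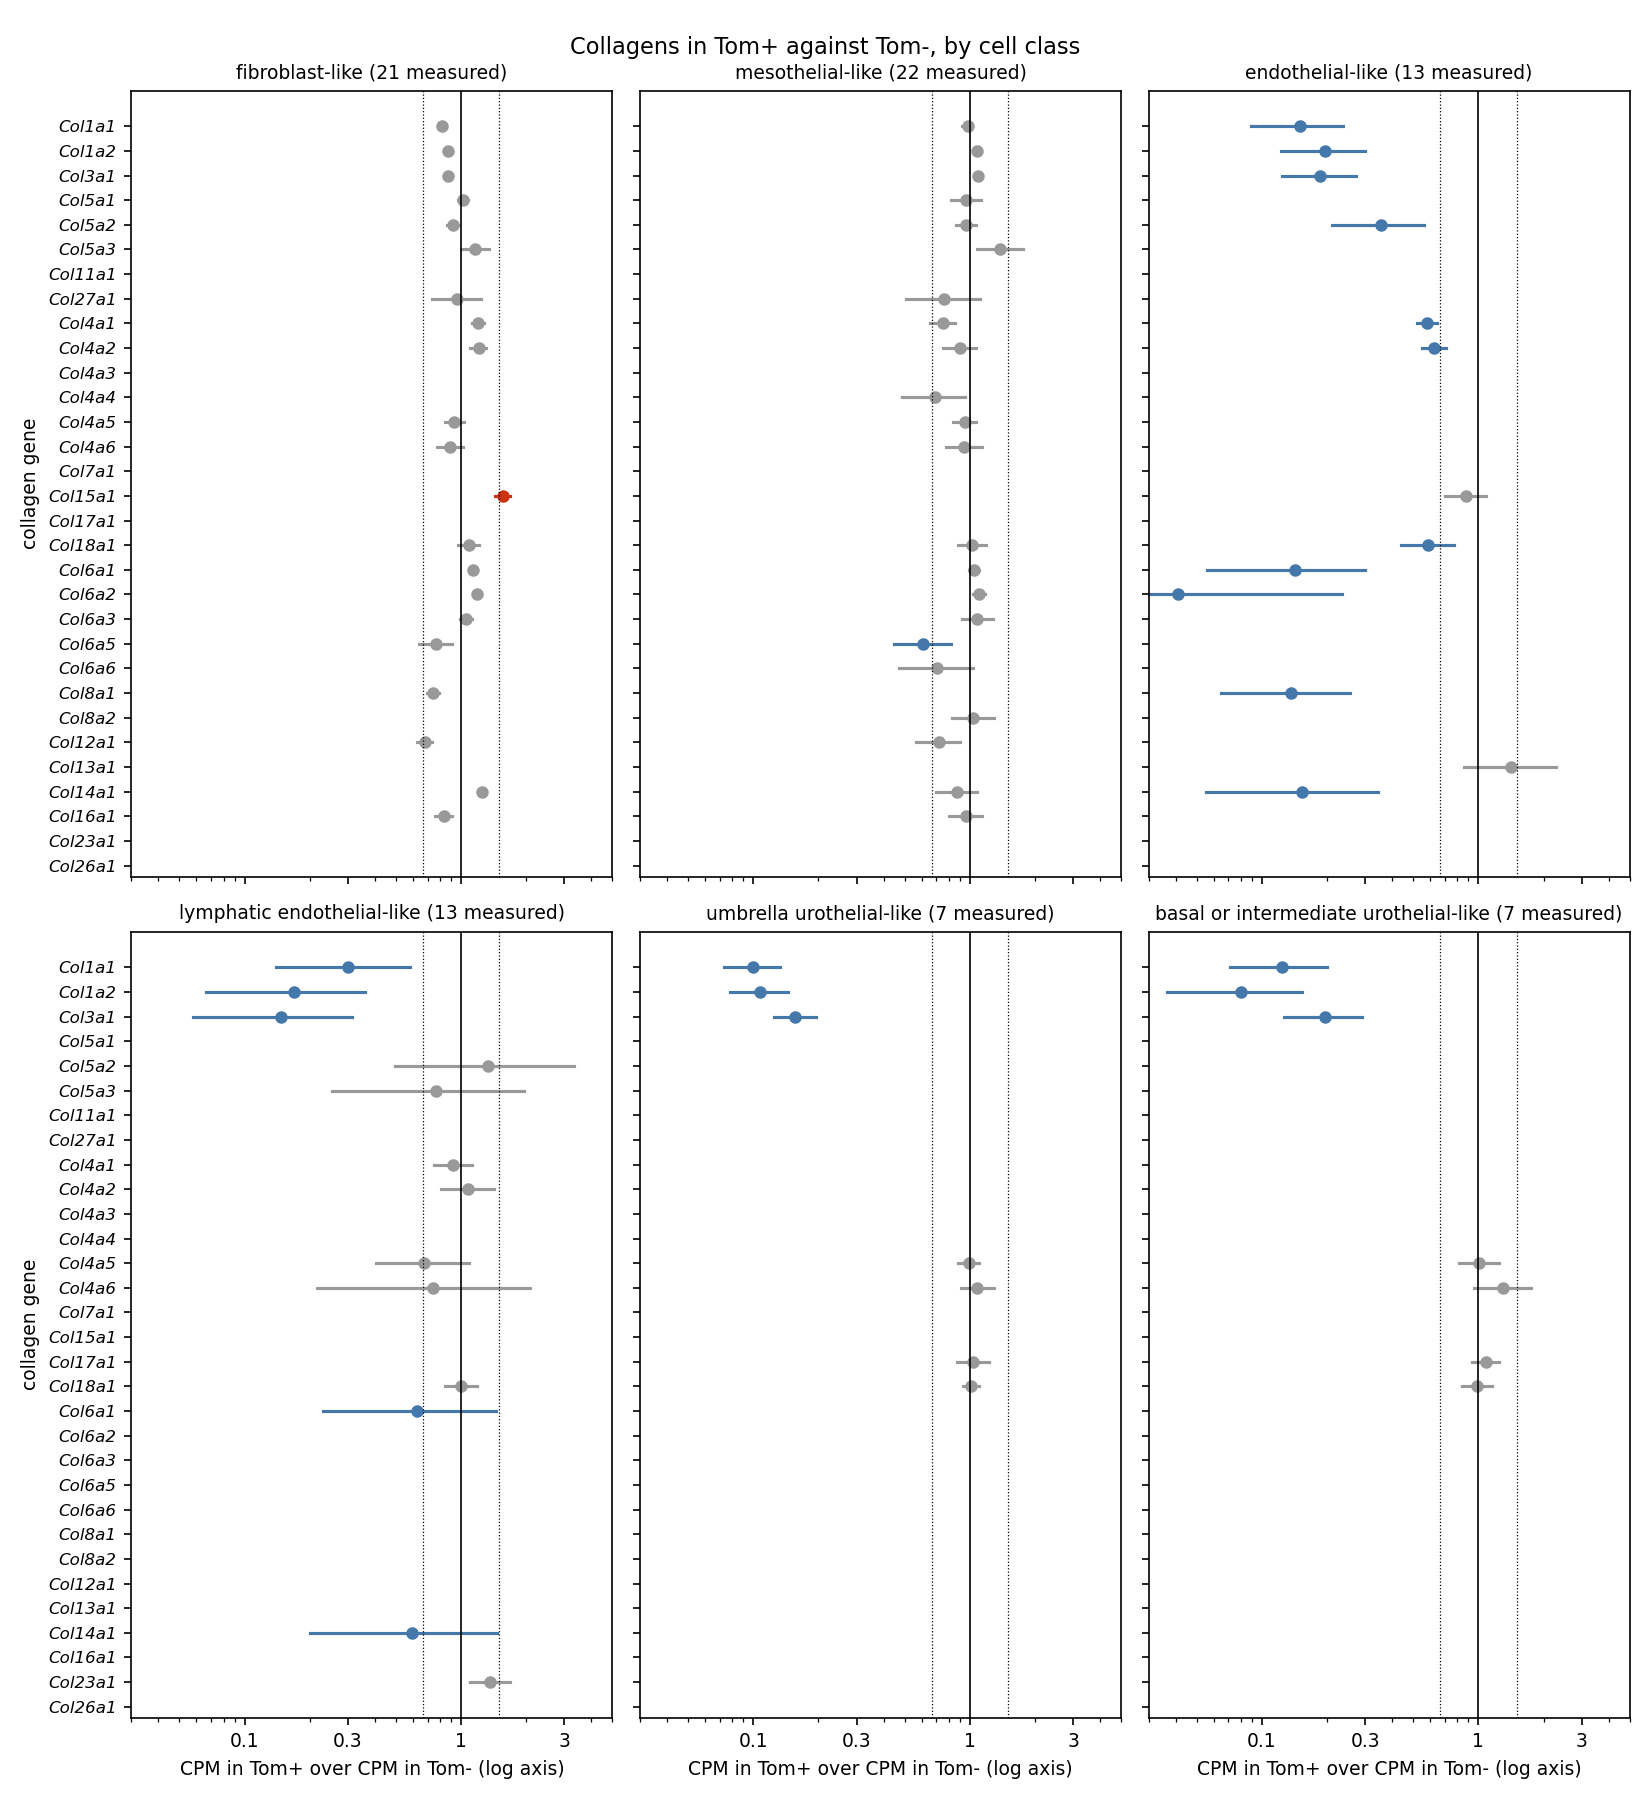
Ratio of Tom+ to Tom- level for each measured collagen in 6 named classes, on a log axis, with exact conditional binomial 95% intervals; dotted lines mark 1.5 times in either direction, red and blue mark members called higher or lower and grey those not called, and the Col6a2 interval in endothelial-like cells runs past the axis. Ratios gather around 1 in fibroblast-like and mesothelial-like cells, while fibrillar members fall far to the left in endothelial-like and urothelial-like cells.

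Sub-clusters of the fibroblast-like and Car3 stromal cells differed in their collagens over a wide range. Clustered again without collagens, the reporter and Cdkn2a, they formed 11 sub-clusters. In Tom-, Col12a1 ranged from 9.17 CPM in the sub-cluster led by Akr1c18 (166 cells) to 1727 CPM in a Car3 stromal sub-cluster led by Gatm, Tlr12 and Cdkn2a (125 cells). Col14a1 had the opposite ends, 1522 CPM in the first and 14.5 CPM in the second. Col8a1 was also lowest in the sub-cluster led by Akr1c18, at 4.23 CPM, and highest in one led by Bglap2, at 466 CPM. Col15a1 stood at 157 CPM in the sub-cluster led by Cilp, 152 CPM in that led by Dner, 21.5 CPM in that led by Olfml2a and 3.63 CPM in that led by Gatm. Col6a5 stood at 176 CPM in the sub-cluster led by Cilp and at 1.07 CPM or less in those led by Dner, Iqgap2, Bglap2, Olfml2a, Unc13c and Gatm. Col1a1 spanned a smaller range, from 1015 CPM in a shallow sub-cluster to 13579 CPM in that led by Gatm, where 3.98% of all UMIs were collagen.

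The libraries drew on these sub-clusters unequally. The Dner sub-cluster held 15.8% of the Tom- and 41.9% of the Tom+ cells, and the Unc13c sub-cluster, mostly Car3 stromal cells, 21.8% and 4.37%. Within sub-clusters the Col15a1 ratio was 1.03 in the Dner sub-cluster (151.8 and 155.7 CPM, interval 0.912 to 1.152), 0.914 in that led by Iqgap2 (0.586 to 1.36) and 0.841 in that led by Olfml2a (0.523 to 1.29), all with intervals that include 1. It was 1.31 in that led by Cilp (1.13 to 1.51), 1.47 in that led by Bglap2 (1.10 to 1.92) and 2.70 in a shallow one (1.61 to 4.41), with intervals above 1. If the fibroblast-like cells of Tom- had been mixed in the proportions of Tom+, Col15a1 would have stood at 103 CPM, between the observed 75.1 and 117 CPM, and Col12a1 at 134 CPM, between 158 and 107 CPM. As an equal-weight mean within sub-clusters the log2 ratio of Col15a1 was 0.17 to 0.39 over 3 resolutions, under the fold, and 0.12 without the shallow sub-cluster at resolution 0.5. At resolution 0.5 Col12a1 and Col6a5 were then called lower, and without the shallow sub-cluster neither was, at -0.33 and -0.49. Over all cells of a sub-cluster, the ratio of Col12a1 was 0.541 in the Iqgap2 sub-cluster (interval 0.358 to 0.786), 0.677 in the Olfml2a (0.588 to 0.775), 0.897 in the Bglap2, 0.969 in the Dner and 0.978 in the Cilp sub-cluster, and 0.120 in the shallow one, where it rested on 4 Tom+ UMIs. In the Unc13c sub-cluster, which had too few cells of the fibroblast-like class to enter the mean, it was 1.18 (1.07 to 1.30). Of the sub-clusters in the mean, that led by Cilp held 128 Tom+ UMIs of Col6a5 (ratio 0.647, 0.535 to 0.777), and the others at most 1 each.

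**Figure D4:**
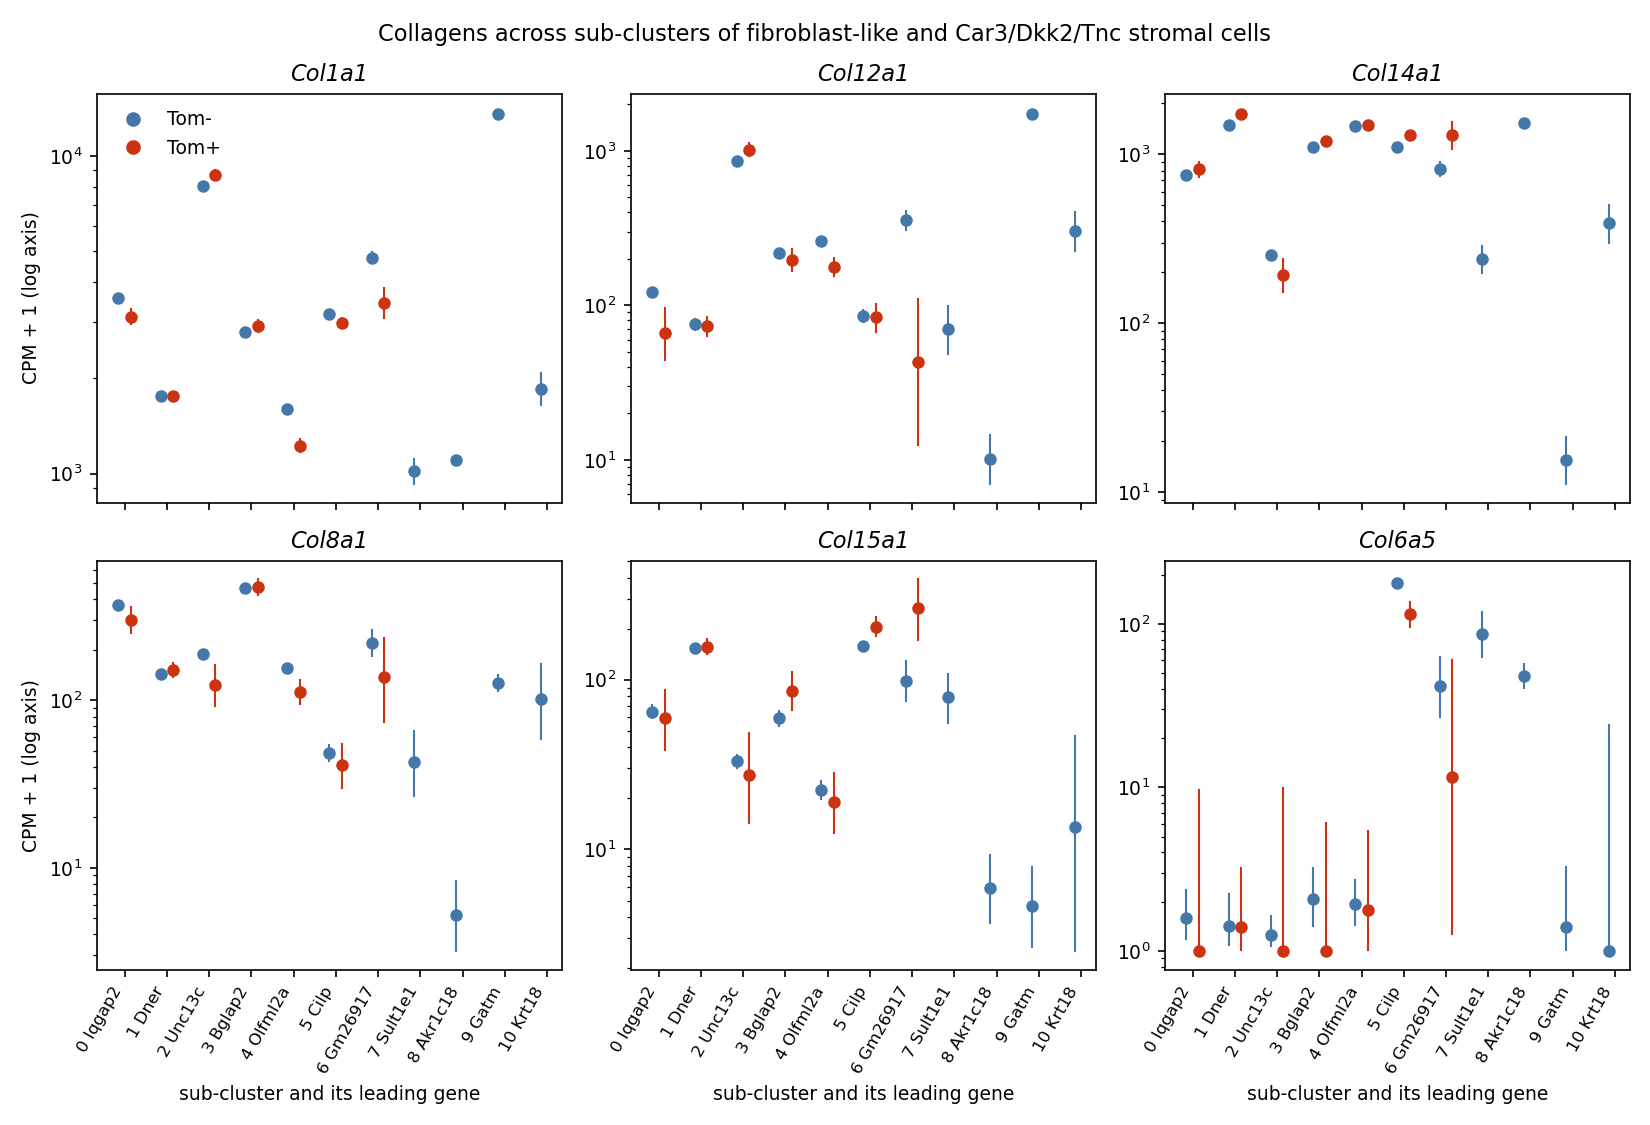
Levels of 6 collagens, as CPM + 1 on a log axis, in the 11 sub-clusters of fibroblast-like and Car3 stromal cells, named by number and leading gene; blue is Tom-, red is Tom+ where the sub-cluster had enough cells, and lines are exact Poisson 95% intervals. Col12a1 and Col14a1 run in opposite directions between the sub-clusters led by Akr1c18 and Gatm.

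Mesothelial-like cells, the lining of the outer bladder surface, had close collagen levels in the 2 libraries when all barcodes were counted. More members were called lower without the barcodes found in both. Of 22 measured members 1 was lower and none higher, the median log2 ratio was -0.06 against -0.01 over all 8911 genes measured, and 2.69% of those genes were called higher, 1.49% lower and 4.19% in either direction. Col1a1 stood at 471 CPM in 757 Tom- cells and 460 CPM in 164 Tom+ cells, Col1a2 at 1028 and 1109 CPM, Col3a1 at 1271 and 1385 CPM and Col8a2 at 26.6 and 27.6 CPM, with ratios of 0.977 to 1.09. The member called lower, Col6a5, stood at 22.9 and 13.9 CPM (0.608, 0.445 to 0.816), and 18 of its 51 Tom+ UMIs came from 1 cell. Of these Tom+ cells 67 carried barcodes also found in Tom-, and without shared barcodes 6 members were lower. The share of all genes called was not counted without shared barcodes, so the 6 are not read as a trait of collagens. The log2 ratio of Col1a1 was then -1.09, that of Col1a2 -1.20, that of Col3a1 -0.80, that of Col6a5 -2.44, that of Col6a6 -1.60 and that of Col14a1 -0.62. The Col1a1 levels of 471 and 460 CPM lay below the 996 CPM of erythroid-like cells, and no difference in expression is read from Col1a1 here.

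Over the endothelial-like class as a whole, most measured members were called lower in Tom+. Of 13 measured members 11 were lower and none higher, with a median log2 ratio of -2.27 against -0.10 over all 8964 genes measured, of which 2.35% were called higher, 9.49% lower and 11.8% in either direction. The 4 members Col6a1, Col6a2, Col8a1 and Col14a1 passed the filter only through their Tom- level and had to be lower. Of the 9 members at 10 CPM or more in both libraries 7 were lower, with a median log2 ratio of -0.79. The fibrillar members Col1a1, Col1a2 and Col3a1 were low in Tom- and lower still in Tom+. Col1a1 stood at 85.6 CPM in 680 Tom- cells and 12.8 CPM in 166 Tom+ cells (0.149, 0.0890 to 0.236), Col1a2 at 78.7 and 15.5 CPM, and Col3a1 at 105 and 19.5 CPM. Those levels were 2.82% to 3.64% of the fibroblast-like levels in Tom- and 0.612% to 0.783% in Tom+. Both Col1a1 levels lay below the 996 CPM of erythroid-like cells, and no difference in expression is read from these 3 members. The summed fibroblast markers moved with them, from 998 CPM with none of 8 at 0 to 213 CPM with 1 of 8 at 0, as did the pericyte markers, from 175 to 40.4 CPM; their part in the result was not tested.

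The basement membrane chains that these cells hold at high levels were lower by smaller ratios. Col4a1 had 502 CPM (Tom-) against 291 CPM (ratio 0.578, 0.521 to 0.641), Col4a2 at 312 and 194 CPM (0.622, 0.546 to 0.706) and Col18a1 at 70.2 and 41.0 CPM (0.585, 0.438 to 0.770), while Col15a1 stood at 86.2 and 75.4 CPM and Col13a1 at 12.4 and 17.5 CPM and were not called. The endothelial-like class was made of 3 clusters in unequal proportions. The cluster led by Cd36 held 209 Tom- and 14 Tom+ cells, that led by Esm1 held 201 and 27, and that led by Selp held 270 and 125. In Tom-, Col4a1 stood at 838 CPM in the Cd36 cluster, 802 CPM in the Esm1 cluster and 110 CPM in the Selp cluster. Within clusters the change of Col4a1 differed in direction: 838 to 1806 CPM in the Cd36 cluster (2.15, 1.83 to 2.52), 802 to 500 CPM in the Esm1 cluster (0.623, 0.507 to 0.759) and 110 to 119 CPM in the Selp cluster (1.08, 0.871 to 1.34). The Tom+ value in the Cd36 cluster comes from 14 cells, and 1 endothelial-like cell held 60 of the 432 Tom+ UMIs of Col4a1. Col4a2 had ratios of 1.61, 0.786 and 1.53 in the same order. Averaged with equal weight over the 3 clusters, the log2 ratios of Col4a1 and Col4a2 were 0.18 and 0.31, opposite in sign to those of the whole class, and Col13a1 was called higher. Without barcodes found in both libraries the class gave the 11 lower members again and Col13a1 higher. Col1a1 was lower in each cluster, with ratios of 0.184, 0.114 and 0.170.

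**Figure D5:**
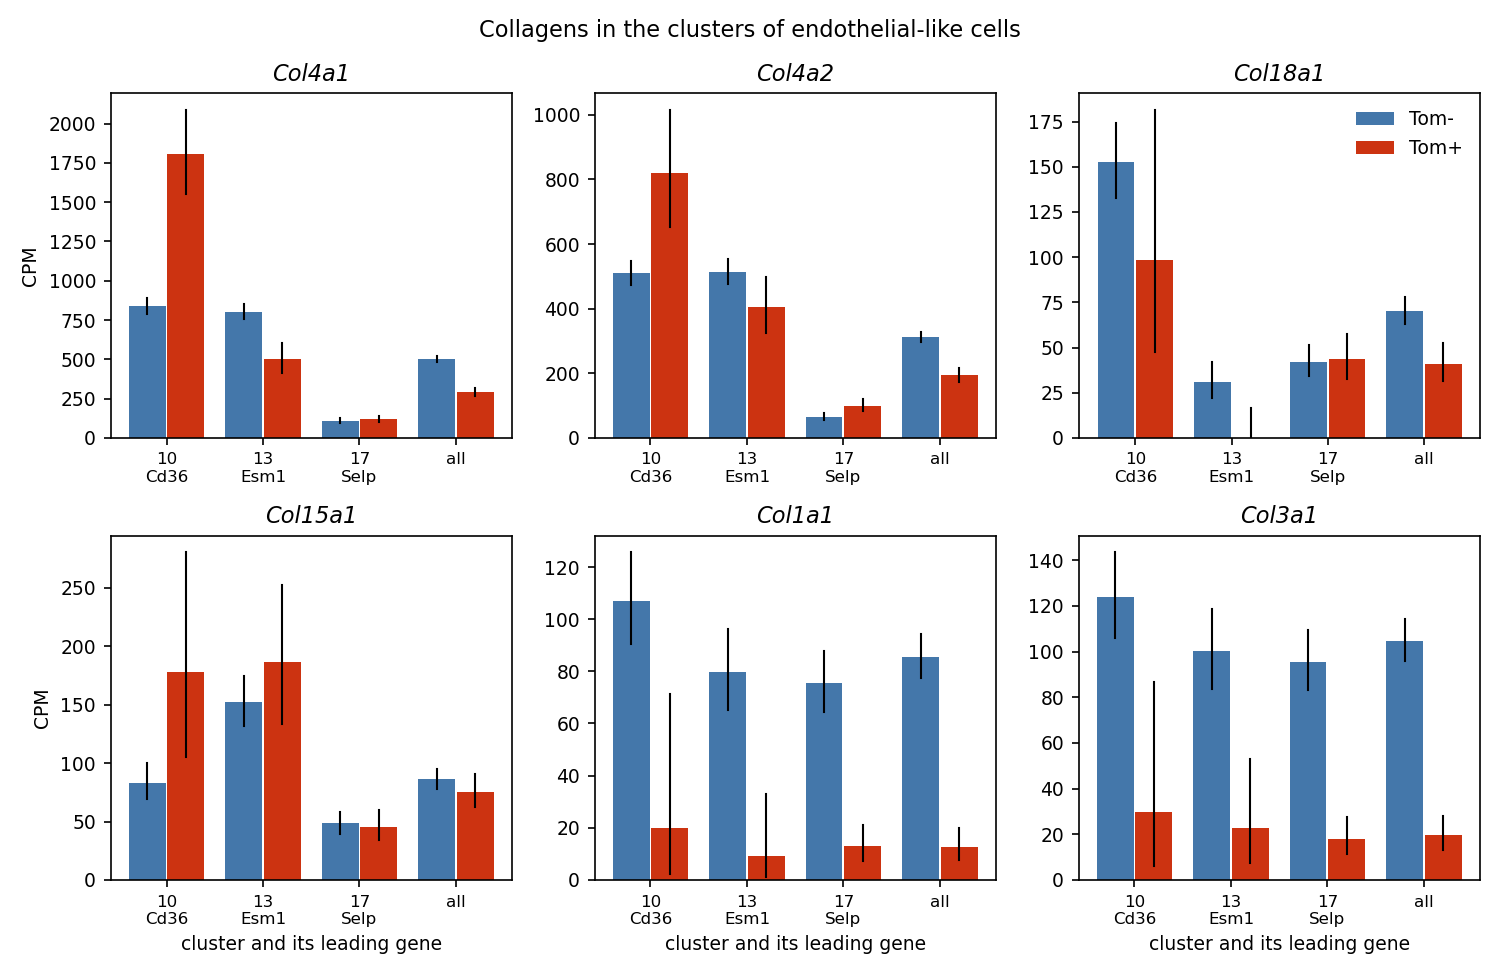
Levels of 6 collagens in the 3 clusters of endothelial-like cells and in the whole class, in CPM, for Tom- (blue) and Tom+ (red); black lines are exact Poisson 95% intervals. Col4a1 and Col4a2 are far lower in the Selp cluster, which holds 125 of the 166 Tom+ cells, and Col1a1 and Col3a1 are lower in Tom+ in every cluster.

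Lymphatic endothelial-like cells kept the members that marked them. Col18a1 stood at 417 CPM in 196 Tom- cells and 416 CPM in 89 Tom+ cells (0.998, 0.839 to 1.18), Col23a1 at 220 and 300.3 CPM (1.36, 1.10 to 1.68) and Col4a1 at 309 and 285 CPM (0.920, 0.747 to 1.13), none of them called. Of 13 measured members 5 were lower and none higher, where 8.27% of 8175 genes were called higher, 11.9% lower and 20.1% in either direction, and the median log2 ratio was -0.40 against -0.01 over those genes. The 5 were Col1a1 (74.0 and 22.2 CPM), Col1a2 (92.3 and 15.6 CPM), Col3a1 (106 and 15.6 CPM), Col6a1 (24.9 and 15.6 CPM) and Col14a1 (22.5 and 13.3 CPM), and the intervals of the last 2 ratios include 1. The Tom+ levels rest on 6 to 10 UMIs each. Both Col1a1 levels lay below the 996 CPM of erythroid-like cells, and no difference in expression is read from Col1a1, Col1a2 and Col3a1 here. The fibroblast markers summed to 1108 CPM here for Tom- and to 271 CPM for Tom+, and their part in the result was not tested.

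In urothelial-like cells the members split by group. In umbrella cells 7 members were measured and 3 were lower, Col1a1 (30.4 and 3.04 CPM), Col1a2 (27.1 and 2.92 CPM) and Col3a1 (33.6 and 5.26 CPM), where 0.0665% of 7523 genes were called higher, 0.332% lower and 0.399% in either direction. In basal or intermediate cells the same 3 of 7 were lower, at 39.1 and 4.84, 32.0 and 2.56, and 37.8 and 7.40 CPM, where 0.2% of 7992 genes were called higher, 1.06% lower and 1.26% in either direction. All 3 passed the filter only through Tom- in both classes, so they had to be lower, and they stood below the erythroid-like levels. No difference in expression is read from them. The summed fibroblast markers were 679 and 432 CPM in umbrella cells and 818 and 509 CPM in basal or intermediate cells; their part was not tested. The median log2 ratio over the 7 was -0.02 in both classes, and -0.02 over all genes measured in each. The 4 basement membrane members gave ratios of 0.988 for Col4a5, 1.09 for Col4a6, 1.04 for Col17a1 and 1.01 for Col18a1 in umbrella cells, and 1.01, 1.30, 1.08 and 0.987 in basal or intermediate cells, none called. With 5% free RNA subtracted no member was called in either class, and with collagens and the reporter used in clustering Col3a1 in basal or intermediate cells had a log2 ratio of 0.75, the opposite direction. Basement membrane chains were 43.2% of collagen UMIs in Tom- and 83.2% in Tom+ umbrella cells. Their summed level was close, at 95.1 and 98.4 CPM, while the fibrillar chains summed to 97.3 and 12.5 CPM. The share therefore moved with the fibrillar UMIs, from which no difference is read.

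Cluster 23, with 200 Tom- and 62 Tom+ cells, had 22 measured members, of which 1 was higher and 4 were lower, where 4.86% of 8947 genes were called higher, 8.24% lower and 13.1% in either direction. Its most abundant members were close: Col3a1 stood at 5165 and 5454 CPM, Col1a1 at 4063 and 4672 CPM, Col1a2 at 3782 and 3823 CPM, Col6a1 at 1750 and 1633 CPM and Col6a5 at 211 and 232 CPM. Col12a1 was higher, 131 and 198 CPM (1.51, 1.26 to 1.79). Col4a1 (51.7 and 31.7 CPM), Col4a2 (30.9 and 15.3 CPM), Col6a6 (41.7 and 24.0 CPM) and Col14a1 (194 and 128 CPM) were lower. Without barcodes found in both libraries the same 5 were called and Col4a6 was higher too. The median log2 ratio was -0.07 against -0.02 over all genes measured.

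The genes that make, process and bind collagen were taken from fixed lists of 34 biosynthesis and crosslinking genes, 10 receptors and 15 other basement membrane genes. In fibroblast-like cells 28, 5 and 9 of them were measured. The only gene called was Plod2, a lysyl hydroxylase that prepares collagen for crosslinking, with 56.2 and 103 CPM (1.83, 1.68 to 2.00). Of all 8871 genes measured in this class 2.46% were called in either direction. No level within sub-clusters is given for Plod2, and the part of their unequal shares in the 2 libraries was not tested. Sparc, a collagen-binding matrix protein, stood at 2432 and 2282 CPM, Serpinh1, the collagen chaperone HSP47, at 683 and 635 CPM, and Ppib, a prolyl isomerase of collagen folding, at 630 and 619 CPM. In mesothelial-like cells 27, 5 and 11 were measured and none was called, where 4.19% of 8911 genes were called in either direction. In endothelial-like cells 2.35% of all genes were called higher and 9.49% lower. Of 24 biosynthesis genes there, 1 was higher (P3h2) and 7 were lower. Among the lower were Sparc (1382 and 857 CPM) and Lox, a crosslinking enzyme (12.8 and 4.71 CPM). Lox passed the filter only through its Tom- level and could only come out lower, so the 7 are not read against that share. In the same class the collagen-binding integrin subunit Itga1 stood at 440 and 216 CPM (0.491, 0.435 to 0.552). Lama5, a laminin chain, stood at 73.0 and 43.7 CPM and Agrn at 52.9 and 30.9 CPM, all called lower. These are levels of the whole endothelial-like class, whose clusters the libraries held in unequal proportions. Levels within clusters are not given for these genes, and the part of the mix was not tested. The Tom- to Tom+ levels of laminin chains in umbrella cells were 48.4 and 53.5 CPM for Lama5 and 58.6 and 59.0 CPM for Lamb3, and neither was called. Sparc was called lower in lymphatic endothelial-like cells too, at 79.0 and 26.7 CPM. It was also lower in umbrella (23.1 and 10.8 CPM) and basal or intermediate cells (53.4 and 31.6 CPM). Of 18 biosynthesis genes in lymphatic cells 2 were higher (Fkbp14, Sec24d) and 1 lower. Of all genes 8.27% were called higher there and 11.9% lower. Of 9 in umbrella cells 1 was lower, and of 13 in basal or intermediate cells 3 (Sparc, Serpinh1, Pcolce). In these 2 classes 0.332% and 1.06% of all genes were called lower. No difference in expression is read from the lymphatic and urothelial Sparc levels, far below the fibroblast-like 2432 CPM.

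A few smaller Tom- classes were left out of the order. In 49 Schwann-like cells, whose leading gene was the myeloid gene Lyz2, Col3a1 stood at 1629 CPM, Col18a1 at 706 CPM, Col1a1 at 568 CPM, Col4a1 at 534 CPM, Col5a3 at 430.5 CPM and Col27a1 at 279 CPM. The values for Col5a3, Col18a1 and Col27a1 were above those of every class in the order, and rest on 125, 205 and 81 UMIs. In erythroid-like cells collagen was 0.354% of all UMIs.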

How the data were processed

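The values were raw UMI counts per gene and barcode that the authors deposited as 1 matrix per library. Cell Ranger 7.0.0 and the mm10 genome are named in the submitters' processing notes, and the matrix header records software version 3.0.2. Other steps before deposit are not given in the sources used here.

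Barcodes with at least 1000 UMIs, 500 genes and at most 15% mitochondrial UMIs were kept, and doublets predicted by Scrublet at 0.8% per 1000 cells were removed: 709 in Tom- and 12 in Tom+ (0.634%; the caller marked few cells there). The libraries were clustered together with scanpy 1.11.5 (2000 variable genes, 30 principal components, 15 neighbours, Leiden resolution 1) without the collagens and tdTomato. A cluster took the class whose markers had the highest mean relative level, if at least 1.15 times the next class; this rule was changed 2 times after clusters were seen. UMIs were summed per class and library and divided by the class total (CPM). Ratios have conditional binomial intervals, and fold calls used log2(CPM + 1), a value computed here from the deposited counts. Thinning took each cell to 2000 UMIs. Classes with fewer than 50 Tom- cells, red cells, and clusters with over 25% of Tom- cells on shared barcodes were left out of the order, a choice made after values were seen. The programs for ratios were tested on simulated data. Python 3.11.15, numpy 2.4.6, scipy 1.17.1, edgeR 4.0.16 (for an alternative scaling only) and R 4.3.3 were used.

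All 31 collagens are accounted for; from other lists, genes past 1.5 times and the 3 highest per class may be named. The members and lists were chosen with earlier results of these data known.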

Additional observations from a re-analysis of the deposited data

Results flagged for a closer look

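The change of Col4a1 between libraries ran in opposite directions in 2 clusters of endothelial-like cells. Its Tom+ level was 2.15 times its Tom- level in the cluster led by Cd36 (14 Tom+ cells) and 0.623 times in the cluster led by Esm1 (27 Tom+ cells), so that one ratio was 3.46 times the other. It was singled out because the 2 intervals, 1.83 to 2.52 and 0.507 to 0.759, lie on opposite sides of 1. With 1 library per group the difference was not tested.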

How the results depend on the processing

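No replicate could be left out, since each group was 1 library. No paired analysis was possible because each group holds 1 library and no test was made. Of 388 values of the 30 called pairs of member and class over the alternatives, 354 kept their direction and stayed past the fold, 25 came under it and 9 reversed. Between 11 and 16 members were highest in Car3 stromal cells over the alternatives, against 13.

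Members called in fibroblast-like cells numbered 1. This count was 0 with doublets kept, 0 without barcodes found in both libraries, 9 (1 higher, 8 lower) with the Car3 clusters counted as fibroblast-like, 2 when thinned, 2 with equal weight per cell, 3 with no filter on low values, 2 as a mean within sub-clusters at resolution 0.3 and at 0.5, and 0 at 0.5 without the shallow sub-cluster. In mesothelial-like cells it was 1, and became 2 with the stricter cell filter, 6 without shared barcodes, 8 with libraries clustered separately, 3 when thinned, 4 with no filter, and 0 at Leiden resolution 0.5, with collagens used in clustering, with a pseudocount of 5 CPM and at 50 CPM or more. In endothelial-like cells it was 11, and became 21 with no filter and 6 at 50 CPM or more. In lymphatic endothelial-like cells it was 5, and became 8 with the stricter cell filter, 14 with doublets kept, 16 with no filter, 1 with 5% free RNA subtracted, and 3 when thinned, with the larger pseudocount and at 50 CPM or more. In umbrella cells it was 3, and became 11 with doublets kept and with no filter, and 0 with free RNA subtracted or at 50 CPM or more. In basal or intermediate cells it was 3, and became 5 (4 higher, 1 lower) at Leiden resolution 0.5 and with collagens used in clustering, 13 with no filter, and 0 with free RNA subtracted or at 50 CPM or more. In cluster 23 it was 5, and became 11 with no filter, and 3 with equal weight per cell, with the larger pseudocount and at 50 CPM or more.

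The log2 ratios that reversed were those of Col6a5 in mesothelial-like cells (0.22 at Leiden resolution 0.5, 0.059 with equal weight), Col4a1 (0.18) and Col4a2 (0.31) in endothelial-like cells as a mean within clusters, Col14a1 in lymphatic endothelial-like cells (0.21 with equal weight), and in basal or intermediate cells Col1a2 (0.085) and Col3a1 (0.83) at Leiden resolution 0.5 and Col1a2 (0.053) and Col3a1 (0.75) with collagens used in clustering. The cause was not tested. The mean within endothelial-like clusters, the mean without the shallow sub-cluster and the naming of clusters by marker folds were chosen after seeing the data. Basal or intermediate cells gave no value with libraries clustered separately (too few cells), and cluster 23 had no counterpart in the other clusterings. Counts under 20 UMIs over both libraries were not read as differences at this depth.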

Other observations

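Collagen genes outside the list were mostly scarce. Col20a1 stood at 344 CPM (100 UMIs) and Col28a1 at 299.6 CPM (87 UMIs) in Schwann-like cells over both libraries, and Col24a1 at 36.3 CPM (164 UMIs) in cluster 23. Col2a1 had 2 UMIs in Tom- and 1 in Tom+ over all cells used, and Col10a1 had 11 and 2.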
